A study of Triticum aestivum with 12 samples.

Results

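The genes described here are 3 glutathione synthetase genes and 4 glutathione S-transferase (GST) genes of bread wheat, Triticum aestivum, 7 of the 83486 genes in the table of normalized counts. They were given as a list of gene identifiers. The deposited comparison tables hold only genes that passed the study's thresholds in at least 1 of 4 comparisons. Of these 24878 genes 5159 have a description, and 10 are described as a glutathione synthetase or a GST. The genes here are 7 of those 10. Each gene was therefore chosen by its salt response, by its difference between shoots and roots, or by both, and for those comparisons the values, and whether a gene passed the thresholds in a fit of all genes, are given below as a description with no p-value and are not read as a test.

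Plants of the Najran cultivar were watered with 200 mM NaCl or with tap water (0 mM NaCl), and were grown for 4 weeks. The labels count the treatment from sowing and the methods from germination. RNA was sequenced from 12 libraries, 3 each of salt-treated shoots, control shoots, salt-treated roots and control roots. The methods state a minimum RNA integrity for the RNA sent to the sequencing provider. In the provider's own measurement, control shoot replicates 1 and 3, salt-treated shoot replicate 1 and salt-treated root replicate 1 were below it. Any part of RNA integrity in the results was not tested. According to the methods each replicate combined a pair of plants, so a library is a small pool and not a single plant.

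The normalized counts summed to between 18565098 and 19748450 in salt-treated shoots, 20513240 and 25371113 in control shoots, 13890189 and 14183797 in salt-treated roots, and 14878135 and 15863307 in control roots. The 65 chlorophyll a-b binding protein genes, markers of green tissue, summed to between 287955 and 498174 in the 6 shoot libraries and between 218 and 935 in the 6 root libraries, in accord with the organ on every label. The root marker searched for, a description as Casparian strip membrane protein, matched 0 genes in the comparison tables (the related CASP-like genes were not used), so roots were checked only by the low level of shoot genes. In such bulk samples fewer cells of a type and less RNA per cell cannot be told apart.

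Glutathione is a tripeptide of glutamate, cysteine and glycine whose thiol makes it a main soluble reductant of plant cells. Glutathione synthetase carries out the last step of its synthesis, the addition of glycine to gamma-glutamylcysteine. GSTs join glutathione to reactive electrophilic compounds or use it to reduce peroxides, and plants carry large families of them that respond to many stresses.

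The 3 synthetase genes lie on different chromosomes of the IWGSC assembly, whose coordinates the comparison tables give. TraesCS7A02G442500 was on the minus strand of chromosome 7A from 636889761 to 636906158, a span of 16398 bases. TraesCS7B02G341200 was on the minus strand of 7B from 595788405 to 595798409. TraesCS5B02G104500 was on the minus strand of 5B from 139340847 to 139351333. Chromosomes 7A and 7B are homoeologous chromosomes of hexaploid wheat, but the tables do not say whether the genes on them are homoeologues.

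The GST genes were shorter. TraesCS2A02G306100, on the minus strand of 2A from 526344388 to 526346178, and TraesCS2B02G322800, on the minus strand of 2B from 461522947 to 461523871, are both described as GST TCHQD. That name comes from Arabidopsis and denotes a class related to tetrachlorohydroquinone dehalogenase, a bacterial enzyme. TraesCS7A02G187300, on the plus strand of 7A from 143037299 to 143038253, is described as GST U10, a name from Arabidopsis for a member of the plant-specific tau class. TraesCS7D02G030700, on the plus strand of 7D from 16153675 to 16155103, is described only as a glutathione transferase.

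**Figure D1:**
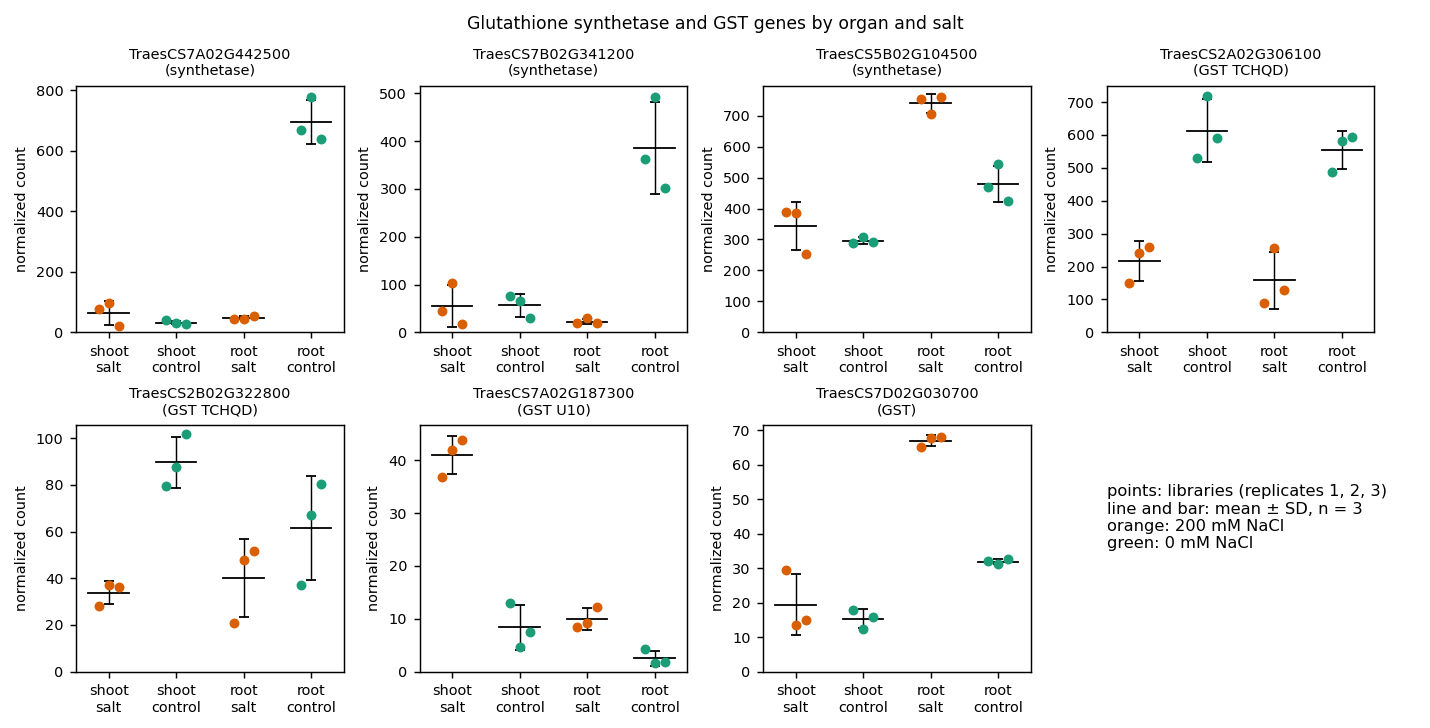
Normalized count (vertical axis, linear, from 0) of each of the 7 genes in salt-treated shoots, control shoots, salt-treated roots and control roots. Points are libraries, the horizontal line is the mean and the bar the SD (n = 3). The 7A and 7B synthetases stand high in control roots alone, at 695 and 385 on average, the TCHQD GSTs of 2A and 2B are lower in salt-treated than in control shoots, and GST U10 is highest in salt-treated shoots, at 40.9 on average.

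In roots, the 7A and 7B synthetases were 14.4-fold and 17.0-fold lower on average under salt, with transcripts still found in every library. The 5B synthetase and the 7D GST had higher values in every salt-treated root library than in any control one, and the 2A GST TCHQD lower values. These 3 were not called in the fit used here, but the study's own root comparison lists the 7D and the 2A gene. Of the 7 genes, 6 had enough signal to be tested in roots, and 2 of them, both synthetases, were called in the limma fit of all genes, where called means an adjusted p under 0.01 together with a log2 fold change of 1 or more in either direction. Over all 44737 genes tested in roots 3.47% were called, 1.17% higher and 2.30% lower under salt. These were 1553 genes, far fewer than the paper counts in roots. Among the described genes, which all passed some comparison and to which all 7 belong, 9.29% were called. Since these genes were in part chosen by this comparison, nothing is read from that share. The median log2 fold change of the 6 genes was -1.29, against -0.0211 over all genes tested.

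TraesCS7A02G442500, the 7A synthetase, had 44.9, 45.9 and 53.6 normalized counts in salt-treated roots, against 668, 777 and 639 in control roots. The lowest control library was more than 10 times the highest salt-treated one. The mean was 48.1 ± 4.74 in salt-treated roots and 695 ± 72.9 in control roots (SD, n = 3 each), 14.4-fold lower under salt. The log2 fold change was -3.82 (SE 0.18, 95% interval -4.24 to -3.41).

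TraesCS7B02G341200, the 7B synthetase, had 18.9, 29.4 and 19.9 normalized counts in salt-treated roots, against 363, 492 and 302 in control roots. Again the groups were far apart, with every control library above every salt-treated one. The mean was 22.7 ± 5.77 in salt-treated roots and 385 ± 96.9 in control roots, 17.0-fold lower under salt, with a log2 fold change of -4.02 (SE 0.27, 95% interval -4.66 to -3.39). Both calls depended on the control libraries. Without control root replicate 2 neither gene was called, at log2 fold changes of -3.74 for the 7A and -3.83 for the 7B synthetase, and without control root replicate 3 the 7B gene was not called at -4.18. Of all genes tested, 0 were called without replicate 2 and 6 without replicate 3, so the loss was not particular to these genes.

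An undescribed gene, TraesCS7A02G442600, overlaps the span of the 7A synthetase by 315 bases. It had 0.768, 0 and 0 normalized counts in salt-treated roots, against 11.8, 15.6 and 13.7 in control roots, the same direction at a far lower count. Whether the transcripts of these genes share sequence is not known here, and any part of shared reads in the result was not tested.

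TraesCS5B02G104500, the 5B synthetase, had the opposite sign in roots. It had 754, 704 and 761 normalized counts in salt-treated roots, against 469, 543 and 425 in control roots, so the groups did not overlap. The mean was 740 ± 30.9 in salt-treated roots and 479 ± 59.3 in control roots, 1.54-fold higher, with a log2 fold change of 0.63 (SE 0.16, 95% interval 0.26 to 1.01) that was under the fold threshold.

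The 2A GST TCHQD, TraesCS2A02G306100, had 89.6, 256 and 128 normalized counts in salt-treated roots, against 487, 583 and 594 in control roots. The groups did not overlap, although salt-treated replicate 2 stood well above the other salt-treated libraries. Its log2 fold change was -1.94 (SE 0.36, 95% interval -2.78 to -1.09) and it was not called here, although the study's own root comparison lists it. Without salt-treated root replicate 2 it was called, at -2.35.

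The 2B GST TCHQD, TraesCS2B02G322800, had 20.7, 48.0 and 51.6 normalized counts in salt-treated roots, against 37.0, 67.0 and 80.5 in control roots. These groups overlapped, and the 95% interval of the log2 fold change of -0.64 ran from -1.67 to 0.39.

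The remaining GSTs were higher in salt-treated roots. TraesCS7D02G030700 had 65.1, 67.6 and 68.1 normalized counts in salt-treated roots, against 31.9, 31.1 and 32.6 in control roots. Its replicates were the tightest of the 7 genes in roots relative to their mean, with SDs of 1.63 under salt and 0.722 without. The log2 fold change of 1.05 (SE 0.21, 95% interval 0.55 to 1.54) was past the fold threshold, but the gene was not called here. The study's own root comparison lists it. TraesCS7A02G187300, GST U10, was at 8.43, 9.24 and 12.2 normalized counts in salt-treated roots, against 4.20, 1.56 and 1.85 in control roots. All of its control values were below all of its salt-treated values, but fewer than 3 libraries reached 10 normalized counts and it was not tested.

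Of the 6 tested genes, 2 were higher and 3 lower under salt in roots with groups that did not overlap. The untested GST U10 was higher without overlap as well. Over all genes tested in roots, 37.5% had groups that did not overlap, 17.3% higher and 20.2% lower.

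In shoots the synthetases showed no call and GST U10 and both TCHQD genes did. The means of these 3 GSTs moved in the same direction in roots. The intervals of their difference in salt response between the organs, given below, held 0. All 7 genes were tested in shoots and 3 were called, 1 higher and 2 lower under salt, where 5.28% of all 44647 genes tested were called, 2.30% higher and 2.99% lower, and 11.7% of the described ones. The shoot groups did not overlap for the same 3 genes, against 36.5% of all genes tested, 16.4% higher and 20.2% lower. The study's own shoot comparison lists these 3 genes, so nothing is read from either count. The median log2 fold change of the 7 genes was 0.18, against -0.0135 over all genes tested.

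TraesCS7A02G187300, GST U10, had 36.9, 41.9 and 43.9 normalized counts in salt-treated shoots, against 13.0, 4.76 and 7.42 in control shoots. Every salt-treated library stood clear of the control libraries. The mean was 40.9 ± 3.59 in salt-treated shoots and 8.39 ± 4.21 in control shoots, 4.87-fold higher, with a log2 fold change of 2.25 (SE 0.41, 95% interval 1.31 to 3.19). The call rests on few counts. It was lost without any 1 of the salt-treated shoot replicates or without control shoot replicate 2 or 3, while the log2 fold change stayed between 1.94 and 2.32 without them.

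The 2A GST TCHQD, TraesCS2A02G306100, had 149, 243 and 259.9 normalized counts in salt-treated shoots, against 528, 717 and 592 in control shoots. No salt-treated library came near a control library. The log2 fold change was -1.52 (SE 0.23, 95% interval -2.06 to -0.99), a mean 2.82-fold lower under salt. Without control shoot replicate 1, 2 or 3 the call was lost, at -1.62, -1.40 and -1.54.

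The 2B GST TCHQD, TraesCS2B02G322800, had 28.3, 37.0 and 36.4 normalized counts in salt-treated shoots, against 79.7, 87.6 and 101.6 in control shoots. The groups did not overlap here, although they did in roots. The log2 fold change was -1.38 (SE 0.23, 95% interval -1.91 to -0.84), a mean 2.64-fold lower. Leaving out any 1 of the 6 libraries ended the call, with log2 fold changes between -1.46 and -1.26. Both TCHQD calls in shoots were also lost after all libraries were brought to 1 common total, at -1.31 for the 2A and -1.17 for the 2B gene. Under that scaling the median over all genes in shoots was 0.194.

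Relative to its mean, each of the 3 synthetases varied more among the salt-treated shoot libraries than among those of any other group. TraesCS7A02G442500 had 78.8, 95.6 and 19.5 normalized counts in salt-treated shoots, against 39.9, 29.4 and 28.7 in control shoots. TraesCS7B02G341200 had 43.9, 103.5 and 18.0 in salt-treated shoots, against 75.7, 65.0 and 29.4 in control shoots. In salt-treated shoots replicate 3 was the lowest library for both genes and also for the 5B synthetase, at 253 normalized counts beside 389 and 386, where control shoots had 289, 309.5 and 291.

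With this spread the shoot intervals of the synthetases were wide. The log2 fold change in shoots was 0.70 (95% interval -0.56 to 1.96) for the 7A, -0.26 (-1.66 to 1.13) for the 7B and 0.18 (-0.26 to 0.62) for the 5B synthetase. Without salt-treated shoot replicate 3 the 7A value was 1.40 and the 7B value turned to 0.35, neither of them called. The 7D GST, TraesCS7D02G030700, had 29.5, 13.5 and 15.0 normalized counts in salt-treated shoots, against 17.9, 12.4 and 15.9 in control shoots. These overlapped, with a log2 fold change of 0.24 (95% interval -0.70 to 1.19).

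**Figure D2:**
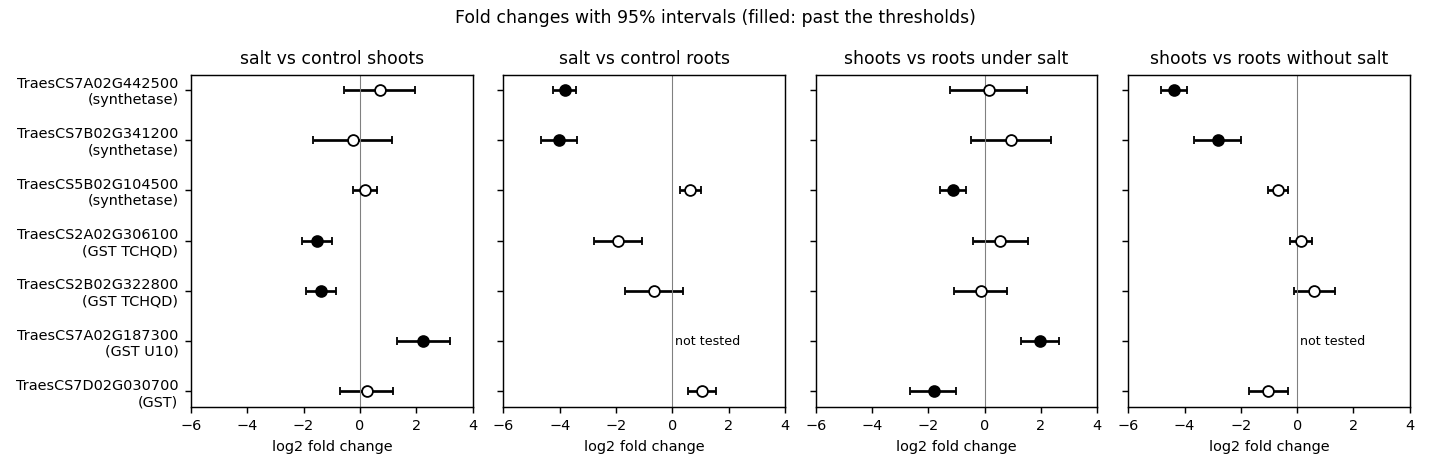
Log2 fold change (horizontal axis, same range in every panel) of each gene for salt against control in shoots and in roots and for shoots against roots with and without salt. Points are limma estimates, bars are 95% intervals, and filled points were called. The 7A and 7B synthetases stand at -3.82 and -4.02 in roots, while their shoot intervals reach across 0.

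The salt response in shoots minus that in roots was estimated from all 12 libraries, where 2.13% of 51487 genes were called. It was 4.53 on the log2 scale (SE 0.64, 95% interval 3.14 to 5.91) for the 7A synthetase and 3.76 (SE 0.75, 2.12 to 5.40) for the 7B synthetase. The 7A synthetase was called and the 7B synthetase was not. A block by replicate number ties all libraries of the same number, salt-treated with control as well as shoots with roots. Across salt the numbers did not pair the samples. With this block the 7B synthetase was called too, at the same 3.76. It was also called at a common total, with a pseudocount of 10 and without salt-treated shoot replicate 3, at 3.84, 3.39 and 4.38. For the other 5 genes the interval of this difference held 0, from -0.80 (95% interval -1.76 to 0.15) for the 7D GST to 0.56 (-0.71 to 1.83) for GST U10. For the 2A GST TCHQD, whose values under salt lay below those of the controls in both organs, it was 0.42 (-0.60 to 1.43). The root response helped to choose 4 of the genes and the shoot response 3, so these differences are descriptions too.

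Shoots and roots were also compared at each salt level, and these comparisons use the same libraries as the salt comparisons. Under salt all 7 genes were tested and 3 were called, 1 higher and 2 lower in shoots, where 29.8% of all 47079 genes tested were called, 17.4% higher and 12.3% lower, and 69.8% of the described ones. Without salt 6 genes were tested and 2 were called, both lower in shoots, where 36.3% of 47566 genes were called, 19.6% higher and 16.7% lower, and 78.2% of the described ones. For 9 of the 14 pairs of a gene and an organ comparison the study's tables do not list the gene, and adjusted p-values are given only for the tested ones among these. A gene was on the list because it passed some comparison, so these tests are not wholly free of that choice.

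Without salt the 7A and 7B synthetases were called lower in shoots than in roots. The 7A gene averaged 32.7 ± 6.29 normalized counts in control shoots and 695 in control roots, 21.3-fold lower in shoots, with a log2 fold change of -4.38 (SE 0.20). The 7B gene averaged 56.7 ± 24.2 in control shoots and 385 in control roots, 6.80-fold lower, with a log2 fold change of -2.82 (SE 0.36). In both genes the highest control shoot library was far under the lowest control root library.

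Under salt neither gene was called between the organs. The 7A synthetase averaged 64.7 ± 40.0 normalized counts in salt-treated shoots and 48.1 in salt-treated roots, with a log2 fold change of 0.14 (95% interval -1.22 to 1.50, adjusted p = 0.862 by limma, with the Benjamini-Hochberg method). The 7B synthetase averaged 55.1 ± 43.9 in salt-treated shoots and 22.7 in salt-treated roots, at 0.94 (95% interval -0.50 to 2.37, adjusted p = 0.254 by limma). These intervals leave room for sizeable differences either way, and with the libraries at 1 common total the 7A value changed sign, to -0.30. Without salt-treated shoot replicate 3 the values were 0.84 for the 7A and 1.56 for the 7B synthetase, with adjusted p-values of 0.0461 and 0.0459 by limma, and neither was called.

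The 5B synthetase was lower in shoots at either salt level. It averaged 342.5 ± 77.7 normalized counts in salt-treated shoots and 740 in salt-treated roots, and was called with a log2 fold change of -1.14 (SE 0.19). Without salt it averaged 297 ± 11.3 in control shoots and 479 in control roots, a log2 fold change of -0.68 (95% interval -1.03 to -0.33, adjusted p = 0.00529 by limma) that was under the fold threshold. No control shoot library reached a control root library. The call under salt was lost without salt-treated shoot replicate 3, at -0.93, or salt-treated root replicate 1, at -1.12.

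The TCHQD genes did not differ detectably between the organs. The 2A gene averaged 217 ± 59.7 normalized counts in salt-treated shoots and 158 ± 87.3 in salt-treated roots (log2 fold change 0.55, 95% interval -0.41 to 1.52, adjusted p = 0.315 by limma). Without salt it averaged 612.5 ± 96.2 in control shoots and 554.5 ± 59.1 in control roots (0.14, 95% interval -0.25 to 0.52, adjusted p = 0.535 by limma), and this value turned to -0.39 with the libraries at 1 common total. The interval without salt lay within 1 log2 unit of 0 on either side.

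For the 2B gene, the means were 33.9 ± 4.87 normalized counts in salt-treated shoots and 40.1 ± 16.9 in salt-treated roots (log2 fold change -0.14, 95% interval -1.08 to 0.80, adjusted p = 0.801 by limma). Without salt they were 89.6 ± 11.1 in control shoots and 61.5 ± 22.3 in control roots (0.60, 95% interval -0.13 to 1.33, adjusted p = 0.157 by limma). The 2B gene was thus lowest on average in salt-treated shoots and highest in control shoots, with both root groups between them and overlapping.

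GST U10 and the 7D GST differed between organs in opposite directions. GST U10 averaged 40.9 normalized counts in salt-treated shoots and 9.97 ± 2.00 in salt-treated roots, 4.10-fold higher in shoots, and was called with a log2 fold change of 1.95 (SE 0.29). Without salt it averaged 8.39 in control shoots and 2.54 ± 1.45 in control roots, 3.31-fold higher with no overlap, but the counts were too low to be tested.

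The 7D GST averaged 19.4 ± 8.86 normalized counts in salt-treated shoots and 66.9 in salt-treated roots, 3.46-fold lower in shoots, and was called with a log2 fold change of -1.82 (SE 0.34). Without salt it averaged 15.4 ± 2.80 in control shoots and 31.9 in control roots, with a log2 fold change of -1.02 (95% interval -1.70 to -0.34, adjusted p = 0.0197 by limma), which was not called. Its call under salt was lost without salt-treated shoot replicate 2 or 3 or without any 1 salt-treated root replicate, at log2 fold changes between -1.84 and -1.62.

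Scaling moved the median over all genes more between organs than between treatments. At 1 common total the median over all genes was -0.493 under salt and -0.587 without salt, against -0.0342 and -0.0576 as deposited. Under that scaling the 5B synthetase, at -1.21, and the 7D GST, at -1.52, were called between control shoots and control roots as well. Under salt the groups did not overlap for 3 of the 7 genes, 1 higher and 2 lower in shoots, against 56.5% of all genes tested (28.6% higher and 27.9% lower). Without salt they did not overlap for 5 of the 7, the untested GST U10 higher and 4 genes lower in shoots, against 59.5% of all genes tested (29.3% higher and 30.2% lower).

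The genes on homoeologous chromosomes moved together to different degrees. Over the 12 libraries the log2 values of the 7A and 7B synthetases had a Pearson correlation of 0.90, which was 0.99 in the 6 root and 0.68 in the 6 shoot libraries. For the 2A and 2B TCHQD genes it was 0.82 over all libraries, 0.71 in roots and 0.97 in shoots. These are descriptions of libraries that share organ and treatment, with no test.

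The ratio of the genes of a pair within each library shows where they parted. The 7A to 7B synthetase ratio was 1.79, 0.924 and 1.09 in salt-treated shoots, against 0.527, 0.452 and 0.975 in control shoots. In roots it was 2.37, 1.56 and 2.69 under salt, against 1.84, 1.58 and 2.12 in control roots. All 6 root ratios were above 1 and all 3 control shoot ratios below 1, while the root ratio overlapped between the treatments even though both genes fell there.

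For the TCHQD genes the 2A to 2B ratio was 5.26, 6.56 and 7.13 in salt-treated shoots, against 6.63, 8.19 and 5.82 in control shoots, which overlapped. In roots it was 4.33, 5.34 and 2.49 under salt, against 13.1, 8.70 and 7.38 in control roots, which did not. The 2A gene was thus lower relative to the 2B gene in salt-treated roots. No test was run on these ratios, and since the genes differ in length the ratios are of normalized counts and not of transcript numbers.

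**Figure D3:**
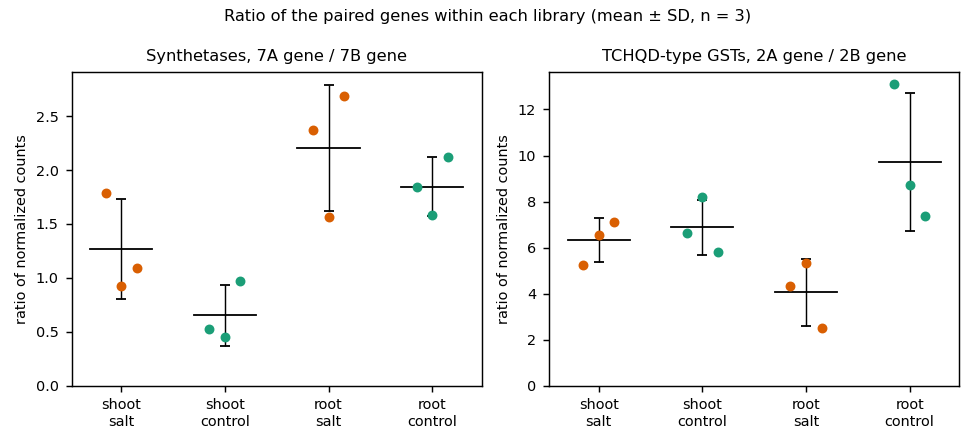
Ratio of normalized counts within each library (vertical axis, linear, from 0) for the 7A over the 7B synthetase and the 2A over the 2B TCHQD gene, in salt-treated shoots, control shoots, salt-treated roots and control roots. Points are libraries, lines and bars are mean and SD (n = 3). The synthetase ratio is above 1 in all root libraries and below 1 in all control shoot libraries, and the TCHQD ratio is between 2.49 and 5.34 in salt-treated roots and between 7.38 and 13.1 in control roots.

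The 5B synthetase did not follow the other synthetases. Its correlation with the 7A gene over the 12 libraries was 0.28, which split into -0.93 in roots and 0.95 in shoots. Its closest companion among the 7 genes was the 7D GST, at 0.93 over all libraries and 0.93 in roots but 0.40 in shoots. Both were highest in salt-treated roots, then in control roots, with the shoot groups lowest and overlapping each other.

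Of 4738 described genes with a mean of at least 10 normalized counts, those most like each of the 7 were found by the Pearson correlation of log2 values over the 12 libraries. The 7A synthetase was closest to TraesCS4A02G496400, a terpene cyclase/mutase family member (0.948), and the 7B synthetase to TraesCS7A02G236500, a probable galactinol-sucrose galactosyltransferase (0.955). The 5B synthetase was closest to TraesCS4B02G182000, a SWEET sugar transporter (0.978), and to TraesCS7A02G549800, a catalase (0.966).

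Among the GSTs, the 2A TCHQD gene was closest to a pair of proline dehydrogenase genes, TraesCS1D02G212400 (0.973) and TraesCS1A02G209100 (0.972), which encode the enzyme that begins proline breakdown. The 2B TCHQD gene was closest to the WRKY1A transcription factor gene TraesCS2B02G187500 (0.917). GST U10 was closest to TraesCS2A02G255100, a succinate dehydrogenase flavoprotein subunit (0.952), and the 7D GST to TraesCS5B02G146000, a non-specific lipid-transfer protein (0.966). With 4 groups behind the 12 libraries many genes share such patterns.

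The comparison tables describe 20 further genes of glutathione metabolism: 8 glutathione peroxidases, 5 gamma-glutamylcyclotransferases, 4 glutaredoxins, 2 GSTs and 1 glutathione synthetase. Gamma-glutamylcyclotransferases break down gamma-glutamyl compounds, glutathione among them, and glutaredoxins use glutathione to reduce protein disulfides. All 20 are listed because they passed at least 1 of the study's comparisons. Of them 6 are in a salt table, 3 in that of roots and 3 in that of shoots. The salt p-values given for the 20 genes are therefore not free of that choice. Listed genes without a description could not be counted here. The paper, which assigned genes to pathways by KEGG orthology, counts many more GST genes changed in roots. No gene was described as glutamate-cysteine ligase, which makes gamma-glutamylcysteine, or as glutathione reductase.

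In roots 14 of these 20 were tested and 1 was called, the peroxidase TraesCS6B02G278100, named after its values were seen, at 45.8 ± 11.4 normalized counts in salt-treated roots and 188 ± 36.1 in control roots (log2 fold change -2.03, SE 0.26, adjusted p = 0.00515 by limma). In shoots 18 were tested and 0 were called by limma, while 7 had an unadjusted p under 0.05. In roots 5 of the 14 had one, and over all genes tested the share was 30.4% in shoots and 31.4% in roots. The median log2 fold change of the tested genes was 0.07 in roots and -0.17 in shoots.

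The gamma-glutamylcyclotransferases were divided in shoots. TraesCS6A02G068300 averaged 3216 ± 951 normalized counts in salt-treated shoots and 1283 ± 198 in control shoots (log2 fold change 1.29, SE 0.24, adjusted p = 0.0106 by limma). TraesCS6B02G092200 averaged 1769 ± 615 in salt-treated shoots and 648 ± 60.8 in control shoots (1.38, SE 0.27, adjusted p = 0.0116 by limma). Neither passed the threshold, although the shoot groups did not overlap for either gene, and the log2 fold changes in roots were 0.61 and 0.35. In salt-treated shoots replicate 3 stood far below the others, at 2129 beside 3623 and 3896 for TraesCS6A02G068300 and at 1060.1 beside 2087 and 2160.1 for TraesCS6B02G092200. TraesCS2A02G316700, the next by mean count, was at -0.08 in shoots (adjusted p = 0.75 by limma), and the other pair of these genes, TraesCS2B02G334800 and TraesCS6D02G065900, was at -0.16 and 1.79 (adjusted p = 0.673 and 0.0668 by limma).

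The other described synthetase, TraesCS6A02G140800, set itself apart from the 3 above. It averaged 267 ± 18.6 normalized counts in salt-treated shoots and 305 ± 37.7 in control shoots, and 99.1 ± 11.8 in salt-treated roots and 88.3 ± 19.2 in control roots. Its log2 fold change under salt was -0.18 in shoots (adjusted p = 0.464) and 0.18 in roots (adjusted p = 0.634, both by limma). It was higher in shoots than in roots, by 1.43 under salt and 1.79 without salt on the log2 scale, the opposite of the 7A and 7B synthetases without salt.

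The other described GSTs were found almost only in roots. TraesCS6A02G139000 had 172, 146 and 149 normalized counts in salt-treated roots, against 449, 731 and 1502 in control roots, and at most 5.30 in any shoot library. It was lower under salt in roots by a log2 fold change of -2.34 (SE 0.40), with an adjusted p of 0.0122 by limma that did not pass. TraesCS3B02G025000 averaged 124 ± 23.1 in salt-treated roots and 105 ± 13.5 in control roots and was listed at 0 in all 6 shoot libraries.

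Between organs, most peroxidases and all glutaredoxins were higher in shoots. Under salt 14 of the 20 genes were called higher and 2 lower in shoots, and without salt 13 of 19 tested were called higher and 2 lower. Over all genes tested 17.4% were called higher and 12.3% lower under salt, and 19.6% and 16.7% without salt, while of the described genes 69.8% and 78.2% were called in either direction. All 4 glutaredoxins were called higher in shoots at either salt level, for example TraesCS5B02G152900 at 556 ± 60.6 normalized counts in salt-treated shoots and 69.9 ± 25.4 in salt-treated roots. Of the 8 peroxidases, 7 were called higher in shoots under salt and 6 without salt. Only the 2 GSTs were called lower in shoots. Since 19 of the 20 genes are in the study's organ table under salt and 15 in that without salt, these counts partly repeat how the genes came to be listed.

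**Figure D4:**
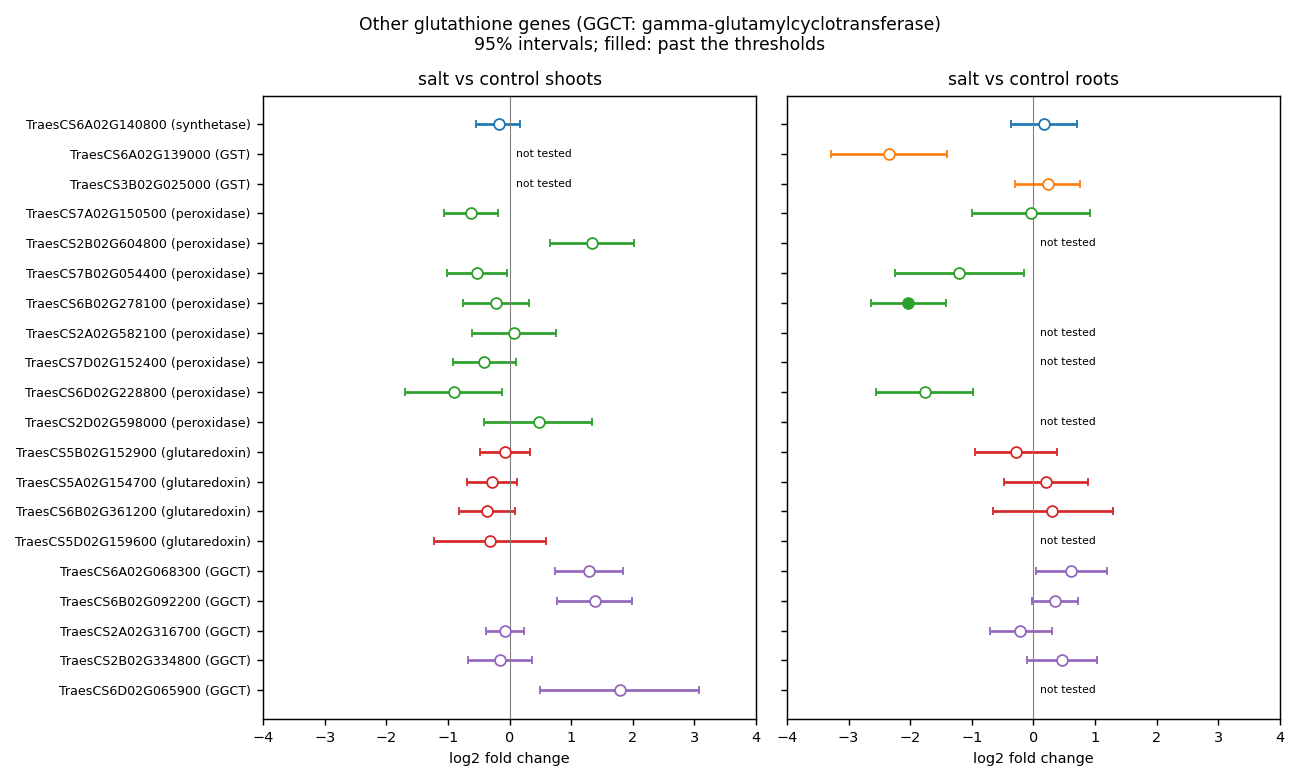
Log2 fold change under salt (horizontal axes, same range) of the 20 other described genes of glutathione metabolism in shoots and in roots, coloured by class. Points are limma estimates, bars are 95% intervals, filled points were called, and "not tested" marks genes with too little signal. Only the peroxidase TraesCS6B02G278100, at -2.03 in roots, is filled.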

How the data were processed

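RNA-seq libraries of shoots and roots were grouped by their labels into salt-treated and control samples, 3 per group. Per the labels and methods, the authors checked reads with FastQC 11.8, trimmed them with Trimmomatic 0.36, quantified them with Salmon 0.12.0 against wheat transcripts, and summed and normalized them with tximport and DESeq2. What the deposited table holds is a normalized count, a signal per gene and library. Whole reads were not recovered from it, so depth is known only as normalized totals, single values have no counting interval, and precision rests on 3 libraries per group. The authors' deposited comparison tables hold a mean signal, log2 fold changes, a test score, and p-values for genes past their thresholds. They were used only for descriptions, coordinates and listing, never for values. There were 0 unused columns of per-sample values.

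Log2(normalized count + 1) was fitted with limma 3.58.1 (R 4.3.3) for each comparison of 6 libraries, with a variance trend, for genes with at least 10 normalized counts in at least 3 libraries. P-values were adjusted by Benjamini-Hochberg over all genes tested. Fold changes on this scale understate changes of low genes. Following the study's thresholds, a gene was called at an adjusted p under 0.01 with a log2 fold change of 1 or more in either direction. The procedure was tested on simulated data, and figures were drawn with matplotlib 3.10.9. The 95% intervals come from the fit. P-values weigh a difference between groups against the spread between these libraries. Since each library is a pool, they do not speak to single plants or to a repeat of the experiment.

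Named genes were the 7 members, their most alike described genes, and up to 3 further genes with the highest mean count in each class of glutathione metabolism. Outside this rule, the peroxidase TraesCS6B02G278100, the cyclotransferases TraesCS2B02G334800 and TraesCS6D02G065900, and the overlapping gene TraesCS7A02G442600 were named too. The members and lists were chosen with earlier results of these data known. Names came from the descriptions; 0 of 82105 wheat identifiers matched the reference annotation at hand, and no sequence was used here. Replicate numbers were checked for pairing: deviations of same-numbered libraries correlated at 0.15, 0.22 and 0.35 between control shoots and control roots, so there the numbers pair the samples. Between salt-treated shoots and roots they correlated at 0.28, 0.21 and 0.07. In both organ comparisons every shoot library correlated best with the root library of its own number. The best partner of each root library was not looked up. In the salt comparisons they correlated at 0.10 or less. Alternatives were another adjusted p threshold, other pseudocounts, no filter, scaling to the same total, 1 fit of all 12 libraries, the replicate number as a block, and each library left out in turn.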

Additional observations from a re-analysis of the deposited data

Results flagged for a closer look

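For the 7A synthetase TraesCS7A02G442500 the salt response differed between the organs: its log2 fold change in shoots minus that in roots was 4.53 (SE 0.64, 95% interval 3.14 to 5.91), and it passed the thresholds in the fit of all 12 libraries. The value is a description, since the root response helped to choose the gene. With 1 library left out in turn the difference ran from 4.11, without salt-treated shoot replicate 2, to 5.22, without salt-treated shoot replicate 3, the lowest library of its group for this gene.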

How the results depend on the processing

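At an adjusted p under 0.05, 4 of the 7 genes were called in roots, 2 at 0.01. All genes called then numbered 5354 in roots (1553 at 0.01), 4572 in shoots (2359), and 3078 for the difference between organs (1097). Pseudocounts of 0.1 and 10 gave 726 and 1891 calls for that difference. With the replicate block 285 genes were called in roots, and 1 of the 7 genes in shoots in place of 3, where GST U10 and the 2B TCHQD gene were lost. The numbers do not pair the samples in these salt comparisons. Between control shoots and control roots, where they do, the block changed no call of the 7, nor did it between salt-treated shoots and roots. For the difference of the salt response between organs it added the 7B synthetase to the calls, at 3.76. There the block also ties salt-treated to control libraries, which the numbers do not pair. One fit of all 12 libraries called 3707 genes in roots and 1 of the 7 in shoots. Scaling to the same total left 1 of the 7 called in shoots and called 4 between control shoots and control roots. It moved the share of calls that were lower to 39.0% in shoots (56.5% as deposited), to 58.0% between organs under salt (41.4%) and to 62.6% between organs without salt (45.9%). GST U10 was not called in shoots with a pseudocount of 0.1 or with no filter. The cause of these changes was not tested.

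Leaving out 1 library gave 0 to 2526 calls in roots, 873 to 1592 in shoots, 8524 to 10948 between organs under salt, 11937 to 13056 without salt, and 453 to 1727 for the difference between organs. The 0 came without control root replicate 2, where limma still gave 9967 genes an unadjusted p under 0.05, and without control root replicate 3 there were 6 calls. The 2526 came without salt-treated root replicate 3. The paper reports a salt-treated root outlier in its principal component analysis, without giving its number. Of the 7 genes, 0 to 3 were called in roots, 0 to 1 in shoots, 1 to 3 between organs under salt and 2 in every case without salt. No called gene of the 7 changed sign under any alternative. With 3 libraries per group, a difference within the replicate spread was not detectable here.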
